A study of Homo sapiens with 132 samples.

Results

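The 10 genes described here set the pace of the G1 phase of the cell cycle: the D-type cyclins CCND1, CCND2 and CCND3, their kinases CDK4 and CDK6, the CIP/KIP inhibitors CDKN1A (p21), CDKN1B (p27) and CDKN1C (p57), and the INK4 inhibitors CDKN2B (p15) and CDKN2C (p18). They were chosen by symbol, through the Ensembl identifiers of the count files, and make up 10 of the 65217 identifiers counted. RNA sequencing was performed in 4 human gastric cancer cell lines, MKN1, Hs746T, MKN7 and NCI-N87 (N87), each derived from a metastasis. The study compared ligand and drugs acting on the receptors EGFR and HER2: the ligand EGF, the EGFR antibody cetuximab (Cet), the HER2 antibody trastuzumab (Tra) and afatinib (Afa), a kinase inhibitor of the HER family. Each of 44 conditions had 3 biological replicates.

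MKN1 and Hs746T cells were left untreated or received 5 ng/ml EGF, 1 µg/ml cetuximab, EGF+Cet, 5 µg/ml trastuzumab, 0.5 µM afatinib or Tra+Afa, for 4 h or 24 h, in 42 libraries per line. MKN7 and N87 cells were left untreated or received trastuzumab, afatinib or Tra+Afa at the same concentrations and times, in 24 libraries per line. All cells were grown in medium with serum. The medium was replaced before treatment, and whether the new medium held serum is not given in the sources used here. The afatinib libraries are compared with untreated cells, and cells given its solvent DMSO alone were not analysed here, so the effects of drug and solvent cannot be told apart. Each line descends from a single tumour and stands for that tumour only.

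D-type cyclins are the cyclins whose transcription follows growth factor signals most directly. Bound to CDK4 or CDK6 they phosphorylate the retinoblastoma protein RB1, which releases E2F transcription factors and lets the cell enter S phase. INK4 proteins bind CDK4 and CDK6 and keep D-type cyclins away, whereas CIP/KIP proteins bind cyclin and kinase complexes and block mainly CDK2. The kinases ERK and AKT, which signal downstream of HER receptors, promote cyclin D transcription, and AKT keeps FOXO factors, activators of CDKN1B, out of the nucleus.

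The libraries held 25832557 to 69434151 counts (median 50725776). Levels are given as CPM, a gene's counts scaled to a common library total and adjusted between libraries by the trimmed mean of M-values (TMM), for replicates 1, 2 and 3 in this order. A gene changed when its adjusted p in edgeR's quasi-likelihood test was below 0.05 (Benjamini-Hochberg, over all genes of the line's fit), and was regulated when its log2FC was also above 1 or below -1. All libraries but 2 were most alike to libraries of the same replicate number, line and time, and the numbers were taken to mark shared cultures. The exceptions were the libraries of replicate 2 of MKN1 Cet 24 h and MKN1 Tra+Afa 24 h, which stood apart. Calls that end without them are given. Values from a fit with the replicate number as a block stand beside the main results for part of the calls that it changed. Fits with a replicate number left out hold fewer libraries per condition and no block, so a call can end there with little change in log2FC.

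Markers fitted the labelled tissue in part. The epithelial adhesion genes CDH1 and EPCAM lay at 184 to 292 and 423 to 709 CPM in MKN7 and 197 to 344 and 244 to 603 CPM in N87 cells, but CDH1 at 0.747 to 6.04 CPM in MKN1 and 0.382 to 6.01 CPM in Hs746T cells. The keratins KRT8 (7656 to 14305 CPM), KRT18 (1683 to 4455 CPM) and KRT19 (3232 to 5525 CPM) were high in MKN1 cells all the same, and Hs746T cells had KRT8 at 271 to 454 and KRT19 at 18.4 to 47.4 CPM. Mesenchymal VIM lay at 1334 to 2047 CPM in Hs746T and 158 to 1218 CPM in MKN1 cells, and Hs746T cells also held COL1A1 (369.99 to 696 CPM) and the endothelial marker PECAM1 (79.6 to 274 CPM). Of the 5 gastric markers, TFF1, TFF2, CLDN18 and GKN1 stayed at or below 8.77 CPM in all lines, while MUC5AC reached 8.74 to 223 CPM in N87 and 1.1 to 13.4 CPM in MKN1 cells. The leukocyte gene PTPRC lay at or below 0.664 CPM.

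No promoter window was at hand for CCND1, CCND2 or CDKN1C. At 24 h of afatinib CDK4 and CCND3 fell and CDKN1B rose in MKN7 and N87 cells. The promoters of these 3 members are shown, standing for the groups that moved apart. Each runs from 250 bases before to 50 bases after a RefSeq transcription start (GRCh38.p14). In CDK4, at chr12:57752261-57752560 on the minus strand, capitals mark the E-box CACGTG. In CDKN1B, at chr12:12717118-12717417 on the plus strand, they mark the CCAAT box in either orientation. In CCND3, at chr6:42048639-42048938 on the minus strand, they mark the forkhead motif GTAAACA.
CDK4: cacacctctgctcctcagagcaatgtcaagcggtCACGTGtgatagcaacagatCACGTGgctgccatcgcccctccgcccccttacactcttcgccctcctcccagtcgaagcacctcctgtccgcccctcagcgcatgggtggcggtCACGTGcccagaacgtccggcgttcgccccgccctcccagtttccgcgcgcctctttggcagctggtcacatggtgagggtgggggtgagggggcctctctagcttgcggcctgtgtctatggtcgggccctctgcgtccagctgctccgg
CDKN1B: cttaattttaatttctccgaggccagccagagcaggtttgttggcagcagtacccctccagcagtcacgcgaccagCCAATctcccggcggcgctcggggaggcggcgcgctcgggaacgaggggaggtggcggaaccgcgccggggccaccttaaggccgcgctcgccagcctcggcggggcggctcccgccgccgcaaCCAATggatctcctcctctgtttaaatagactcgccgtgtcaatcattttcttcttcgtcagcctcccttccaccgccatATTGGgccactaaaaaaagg
CCND3: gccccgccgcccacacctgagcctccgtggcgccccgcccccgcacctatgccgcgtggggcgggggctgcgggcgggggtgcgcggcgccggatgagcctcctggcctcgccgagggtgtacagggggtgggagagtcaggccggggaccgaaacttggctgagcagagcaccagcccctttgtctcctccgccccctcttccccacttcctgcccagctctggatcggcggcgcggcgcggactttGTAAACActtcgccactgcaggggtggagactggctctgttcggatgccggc

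The CDK4 window held CACGTG 3 times, which 33 of the 35116 RefSeq promoter windows (0.094%) matched or exceeded, and 7.26% held it at least once. CACGTG was also present in windows of CDK6 and CDKN2C. The CCAAT box, searched as CCAAT on both strands, occurred in 34.6% of all windows and in 4 of the 12 member windows, a similar share: 3 times in that of CDKN1B, and in 1 window of CDKN2C and the 2 windows of CCND3 that are not shown. The forkhead letters TGTTTAC or GTAAACA occurred in 3.42% of all windows and in 1 of the 12 windows of 7 members searched. This was the CCND3 window shown, and the other 2 windows of CCND3 did not hold them. TGACTCA, TGACGTCA, TTTCCCGC and TTTGGCGC, with their reverse complements, were in none of these 12 windows, against 4.95%, 1.85%, 1.63% and 0.652% of all windows. Binding of a factor was not measured.

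CCND1, which encodes cyclin D1, was the most abundant member in every untreated line when levels were set per kilobase of merged exons. Its level was 143 ± 68.1 CPM per kb in MKN1, 246 ± 14.3 in Hs746T, 234 ± 57.1 in MKN7 and 74.8 ± 8.79 in N87 cells (mean ± SD, n = 6, 4 h and 24 h together). CDK4 came next in MKN1 (36.7 ± 4.2), Hs746T (48.3 ± 2.36) and N87 cells (32.6 ± 4.23 CPM per kb), where its range met that of CCND3 (30.7 ± 4.84 CPM per kb). In MKN7 cells CDKN1B (24 ± 3.62 CPM per kb) and CDK4 (22.8 ± 2.76 CPM per kb) lay within their spread. These orders depend on the length used: set per kilobase of the longest transcript, 19 of 40 levels moved by more than their SD, CCND1 remained highest in all lines, and CCND3 came before CDK4 in N87 cells (74.5 against 49.7 CPM per kb) and CDK4 before CDKN1B in MKN7 cells (34.8 against 25.4 CPM per kb). CDK4 shares 43.2% of its exon bases with TSPAN31 on the opposite strand (median 680 counts per library), and CCND1 shares 10.3% with LTO1. Since the strand setting of the counting is not given in the sources used here, reads from these overlaps cannot be told apart.

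**Figure D1:**
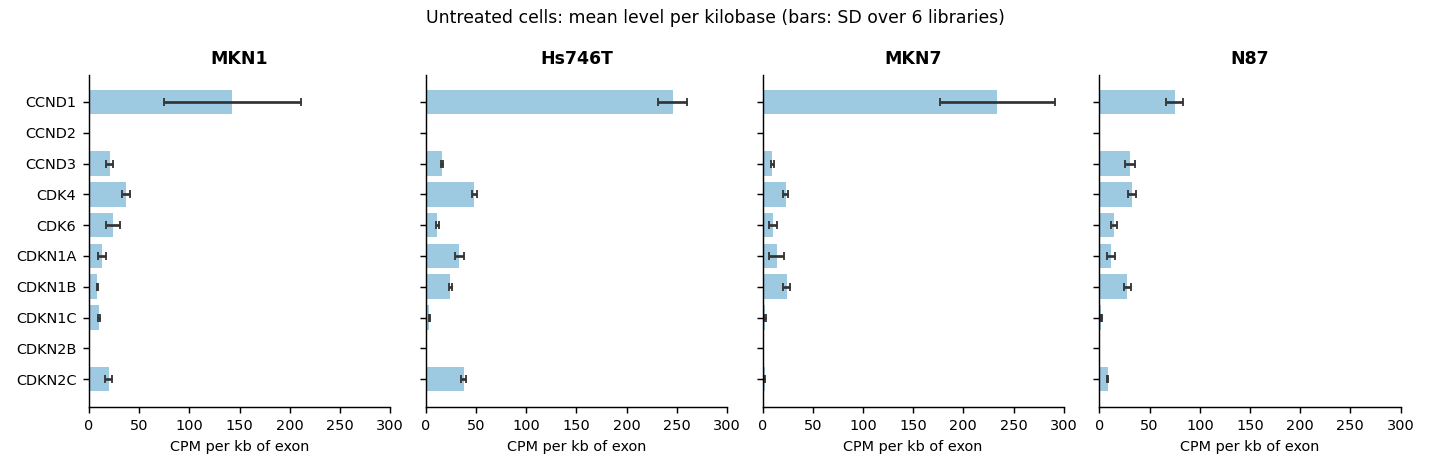
Levels of the members in untreated cells, as TMM-scaled CPM per kilobase of merged exons, by cell line, with bars for the mean of 6 libraries per line. CCND1 lies highest in all lines, at 74.8 to 246 CPM per kb, and CDKN2C spans from 1.98 CPM per kb in MKN7 to 37.6 in Hs746T cells.

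A pair of members was hardly counted. CDKN2B, an INK4 inhibitor encoded beside CDKN2A, had 0 counts in every library, where 3 counts would correspond to 0.0432 to 0.116 CPM. Its neighbour MTAP also had 0 to 2 counts per library in all 4 lines, while the antisense CDKN2B-AS1 had 88 to 1635. Whether CDKN2B was missing, silent or lost in counting was not tested. CCND2 lay at 0.909 to 3.31 CPM in Hs746T cells and at 0.0734 to 0.371 CPM in MKN1, 0 to 0.09 CPM in MKN7 and 0 to 0.154 CPM in N87 cells, so among the fits of single lines cyclin D2 entered those of MKN1 and Hs746T, and it was also tested in the fit over all lines. Counts within a line are therefore out of 9 members tested in MKN1 and Hs746T and 8 in MKN7 and N87 cells, and counts of differences between lines are out of 9.

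The untreated lines differed in their inhibitors. CDKN2C was 4.27 log2 units higher in Hs746T than in MKN7 cells (SE 0.0969, adjusted p = 1.16e-61) and 3.31 higher in MKN1 than in MKN7 cells (adjusted p = 1.00e-53). MKN1 cells held the least CDKN1B and the most CDKN1C. CDKN1B was lower there than in Hs746T (log2FC -1.59, SE 0.06, adjusted p = 8.34e-43), MKN7 (log2FC -1.56) and N87 cells (log2FC -1.77). CDKN1C was higher than in the same lines (log2FC 1.66, SE 0.12, adjusted p = 4.68e-23 against Hs746T cells, log2FC 2.31 and 2.45 against MKN7 and N87 cells). CDKN1A was highest in Hs746T cells, by 1.32 log2 units against MKN7 (adjusted p = 8.65e-12) and 1.54 against N87 cells. CCND1 did not differ by the test between Hs746T and MKN7 cells (log2FC 0.10, adjusted p = 0.431) and was higher in MKN7 than in N87 cells (log2FC 1.62, SE 0.12, adjusted p = 1.80e-23), while CCND3 was lower there (log2FC -1.67, SE 0.08, adjusted p = 9.67e-35). Such differences were common: of all genes tested 76.5% (MKN1 and Hs746T), 71.9% (MKN1 and MKN7), 75.8% (MKN1 and N87), 74.3% (Hs746T and MKN7), 76.3% (Hs746T and N87) and 73.3% (MKN7 and N87) changed. CDKN1A did not differ by the test between MKN7 and N87 cells (log2FC 0.22, adjusted p = 0.222), where the sign turned without replicate 3 (log2FC -0.40).

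Afatinib lowered CCND1 in MKN1, MKN7 and N87 cells within 4 h and, in MKN7 and N87 cells, raised CDKN1B, CDKN1C and CDKN2C at that time. In MKN7 cells 7 of 8 members tested changed at 4 h, where 22.2% of all genes did, and 6 of 8 at 24 h, against 51.6%. In N87 cells 6 of 8 changed at 4 h, against 18.2% of all genes, and 7 of 8 at 24 h, against 62.5%. In MKN1 cells 2 of 9 changed at 4 h (all genes 3.68%) and 3 of 9 at 24 h (all genes 25.6%). At 24 h the shares of the members lay nearer those of all genes. Past the fold limit as well, 4 members were regulated at either time in MKN7 cells (all genes 3.4% and 13.5%), 2 at 4 h and 4 at 24 h in N87 cells (all genes 3.24% and 29.6%), and 0 and 1 in MKN1 cells (all genes 0.681% and 4.19%). In bulk libraries, fewer cells with a transcript and less of it per cell cannot be told apart.

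**Figure D2:**
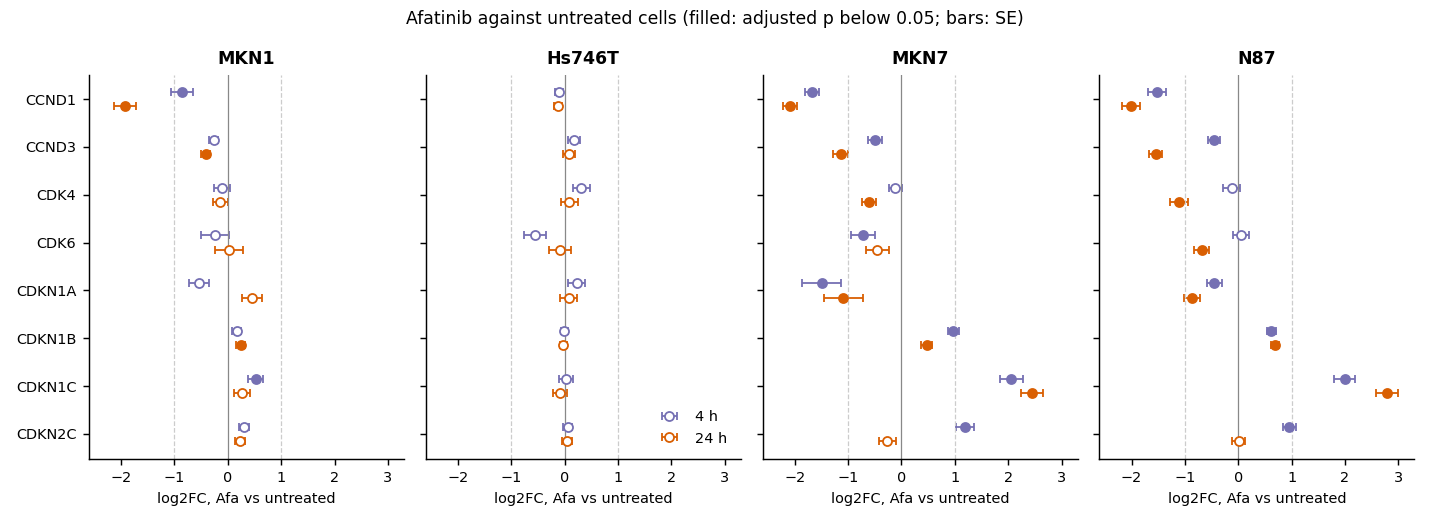
log2FC of the members in afatinib-treated against untreated cells at 4 h and 24 h in the 4 cell lines, with standard errors as bars; filled points passed the adjusted p of 0.05. CCND1 lies below 0 and CDKN1C above 0 in MKN7 and N87 cells at both times, and in Hs746T cells no member passed in this fit without the replicate block.

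In MKN7 cells CCND1 stood at 1264, 1285 and 1506 CPM in untreated cells and at 409, 437 and 462 CPM after 4 h of afatinib. The groups were far apart (log2FC -1.67, SE 0.13, adjusted p = 9.48e-09). After 24 h the untreated cells held 782, 859 and 1085 CPM and the treated cells 204, 216 and 222 CPM (log2FC -2.09, SE 0.13, adjusted p = 3.32e-10). In N87 cells, with less CCND1 to begin with, the level went from 344, 323 and 372 CPM to 126, 108 and 126 CPM at 4 h (log2FC -1.52, SE 0.17, adjusted p = 9.81e-07) and from 327, 363 and 438 CPM to 82.8, 78.4 and 126 CPM at 24 h (log2FC -2.01, SE 0.17, adjusted p = 1.37e-09). Treated and untreated replicates did not overlap in either line. In MKN1 cells the 4 h levels were 1114, 863 and 951 CPM without and 676, 459.8 and 499 CPM with afatinib (log2FC -0.86, SE 0.20, adjusted p = 0.011). This smaller fall, seen in each same-numbered pair, did not pass without replicate 2 (log2FC -0.82, adjusted p = 0.153) or replicate 3 (log2FC -0.80, adjusted p = 0.111). At 24 h, CCND1 fell in MKN1 cells from 366, 332 and 515 CPM to 131.7, 113 and 77.4 CPM (log2FC -1.93, SE 0.21, adjusted p = 9.45e-08), by more than at 4 h (difference of the log2FC -1.07, adjusted p = 0.0359). The difference between the times did not pass without replicate 1, 2 or 3 (adjusted p = 0.106, 0.0787 and 0.521).

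CCND3, encoding cyclin D3, fell less at 4 h and more at 24 h. In N87 cells it went from 165, 208 and 214 CPM to 125, 149 and 151 CPM at 4 h (log2FC -0.46, SE 0.12, adjusted p = 0.00887), a call lost without replicate 2 (adjusted p = 0.171) or replicate 3 (adjusted p = 0.0576). At 24 h the untreated N87 cells held 139, 172 and 172 CPM and the treated cells 48, 57.8 and 63.6 CPM (log2FC -1.55, SE 0.12, adjusted p = 4.70e-10). The 24 h groups were separate, and the effect was larger than at 4 h (difference -1.09, adjusted p = 3.44e-05). In MKN7 cells CCND3 fell from 53.9, 42.6 and 65.5 CPM to 24.4, 23 and 26.7 CPM at 24 h (log2FC -1.14, SE 0.14, adjusted p = 9.36e-07), with a log2FC of -0.50 at 4 h (adjusted p = 0.011, and 0.144 without replicate 1). In MKN1 cells the 24 h levels were 95.6, 100.03 and 109 CPM and 76.3, 89.9 and 64.8 CPM (log2FC -0.42, SE 0.09, adjusted p = 5.84e-04), and without replicate 3 the log2FC was -0.25, adjusted p = 0.176.

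**Figure D3:**
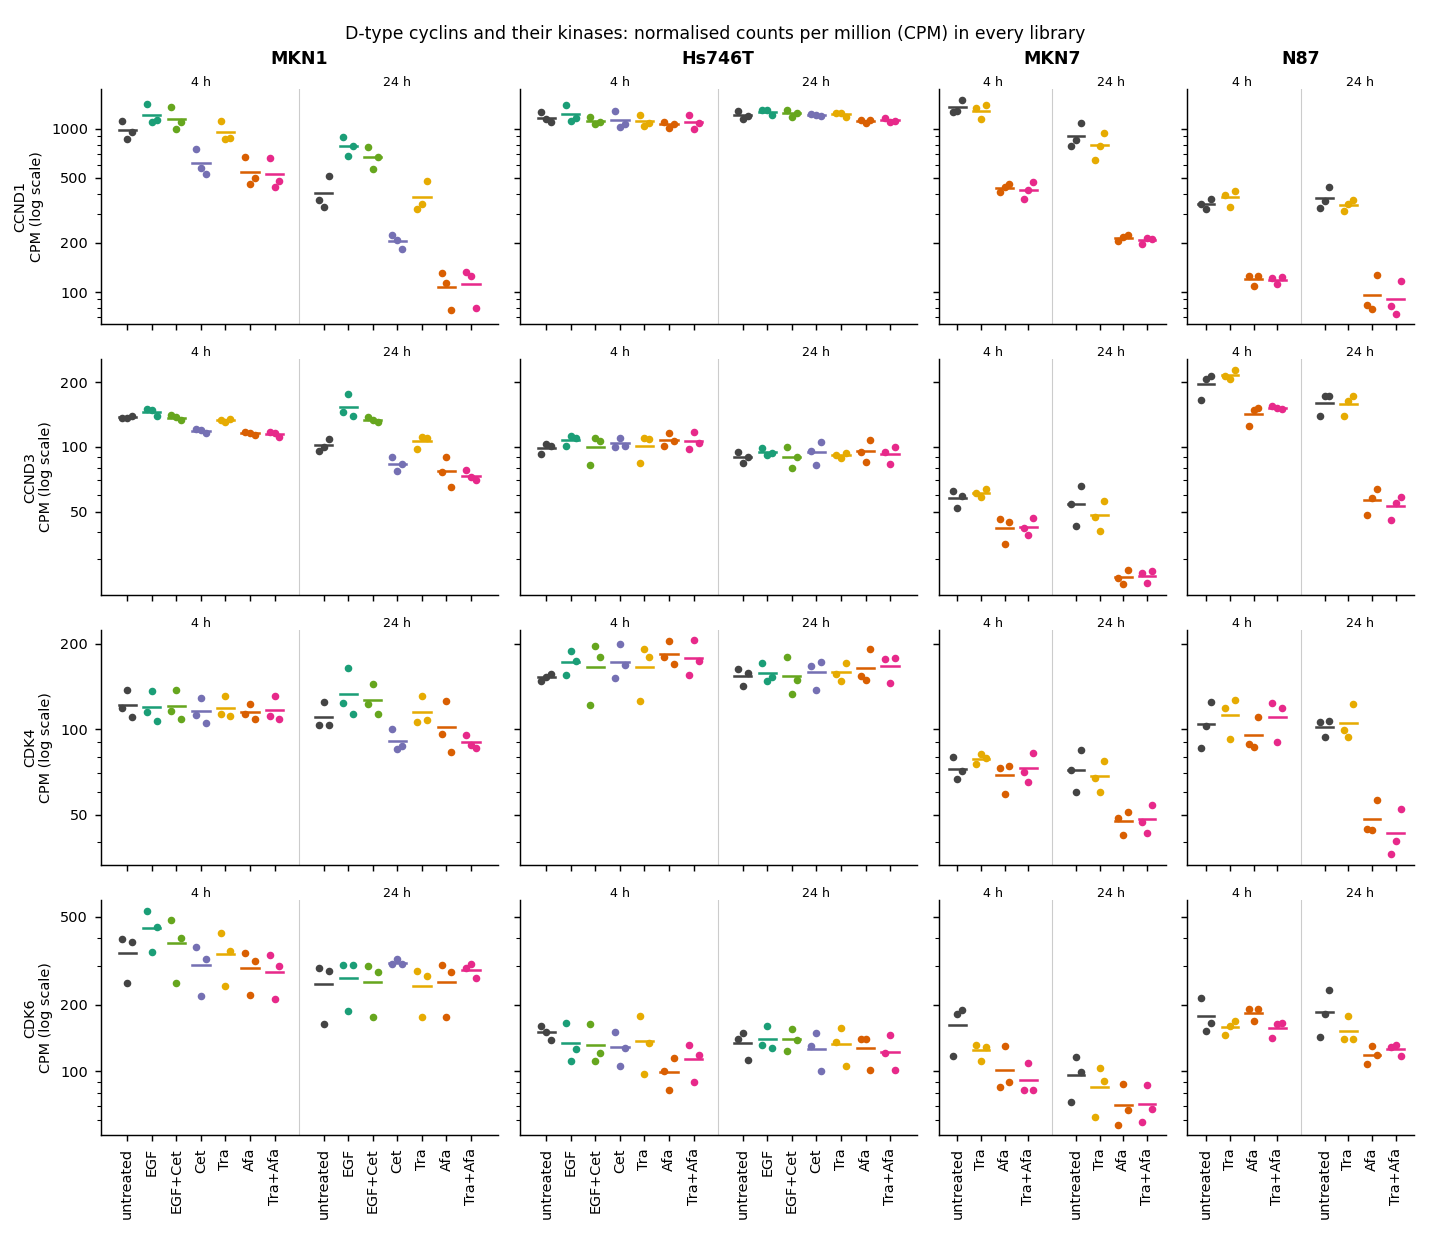
Levels of CCND1, CCND3, CDK4 and CDK6 in all libraries as TMM-scaled CPM on a log axis, by cell line, treatment and time; points are replicates and bars the mean of 3. CCND1 lies at 78.4 to 126 CPM in afatinib-treated N87 cells at 24 h, below all untreated N87 libraries of that time, and for CDK6 the MKN1 Cet and Tra+Afa libraries of replicate 2 at 24 h lie at 323 and 308 CPM, where replicate 2 of the other MKN1 conditions lies at 164 to 188 CPM.

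The kinases fell with afatinib in MKN7 and N87 cells, but without the replicate block neither kinase passed at both times in a line. CDK4 did not pass the test at 4 h in MKN7 (log2FC -0.11, adjusted p = 0.594) or N87 cells (log2FC -0.13, adjusted p = 0.687). At 24 h it fell in N87 cells from 106, 93.6 and 106 CPM to 44.5, 44.3 and 56.5 CPM (log2FC -1.11, SE 0.16, adjusted p = 4.95e-06), and in MKN7 cells from 71.8, 60.3 and 84.2 CPM to 48.7, 42.3 and 51.2 CPM (log2FC -0.61, SE 0.13, adjusted p = 3.95e-04). Neither pair of groups overlapped. The N87 effect was larger at 24 h than at 4 h (difference -0.98, adjusted p = 0.0021, and 0.0834 without replicate 1). CDK6 fell in N87 cells at 24 h, from 144, 181 and 234 CPM to 108, 130.2 and 118 CPM (log2FC -0.68, SE 0.14, adjusted p = 3.08e-04). In that line CDK6 did not pass at 4 h, and its effects at the 2 times differed (difference -0.74, and -0.43, adjusted p = 0.205 without replicate 3). In MKN7 cells at 4 h it stood at 117, 181 and 189 CPM without and 84.8, 129.95 and 89.3 CPM with afatinib, groups that overlapped (log2FC -0.72, SE 0.22, adjusted p = 0.0219, and log2FC -0.50, adjusted p = 0.361 without replicate 3). At 24 h CDK6 passed in MKN7 cells only with the replicate block (log2FC -0.45, adjusted p = 0.0936 without and 0.00454 with it).

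Of the CIP/KIP inhibitors, CDKN1C had the largest rise of all members. In N87 cells p57 transcripts stood at 3.8, 4.72 and 6.78 CPM untreated and 18.1, 17.6 and 24.9 CPM after 4 h of afatinib (log2FC 1.99, SE 0.20, adjusted p = 2.98e-07), and at 3.85, 4.15 and 4.68 CPM and 25.5, 27.5 and 36.9 CPM at 24 h (log2FC 2.79, SE 0.21, adjusted p = 1.61e-10). The rise was larger at 24 h (difference 0.80, adjusted p = 0.0281, and 0.158 without replicate 2). In MKN7 cells the gene went from 4.4, 3.58 and 3.69 CPM to 13.1, 14.6 and 22 CPM (log2FC 2.05, SE 0.22, adjusted p = 5.66e-07), and at 24 h from 8.71, 6.03 and 5.38 CPM to 35.7, 34.1 and 40.1 CPM (log2FC 2.44, SE 0.21, adjusted p = 1.20e-08). No treated replicate overlapped an untreated one in these lines. MKN1 cells, with the highest starting level, went from 20.1, 25.1 and 26.7 CPM to 33.4, 33.3 and 37.8 CPM at 4 h (log2FC 0.52, SE 0.15, adjusted p = 0.0355), a call lost on leaving out replicate 1, 2 or 3 (adjusted p = 0.074, 0.128 and 0.24). At 24 h the MKN1 change passed with the replicate block alone (log2FC 0.27, adjusted p = 0.181 without and 0.0287 with it).

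CDKN1B, encoding p27, rose in the same lines by smaller factors. MKN7 cells held 66.1, 64.1 and 55.6 CPM untreated and 128, 119.8 and 127 CPM with afatinib at 4 h (log2FC 0.97, SE 0.11, adjusted p = 1.19e-06). By 24 h the values were 85.9, 62.9 and 69.7 CPM and 114, 89.1 and 101 CPM (log2FC 0.47, SE 0.11, adjusted p = 9.27e-04). The MKN7 rise was smaller at 24 h than at 4 h (difference -0.50, adjusted p = 0.0245, and 0.204 without replicate 3). In N87 cells CDKN1B rose from 78.3, 82.7 and 92.3 CPM to 129, 117 and 142 CPM (log2FC 0.62, SE 0.08, adjusted p = 1.32e-05), and at 24 h from 76.4, 73.8 and 66 CPM to 118, 116 and 122 CPM (log2FC 0.69, SE 0.08, adjusted p = 3.02e-07). In MKN1 cells it went from 24, 25.1 and 22.7 CPM to 29.6, 29.4 and 27 CPM at 24 h (log2FC 0.24, SE 0.08, adjusted p = 0.0261), which did not pass without replicate 1, 2 or 3 (adjusted p = 0.145, 0.0807 and 0.0881).

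**Figure D4:**
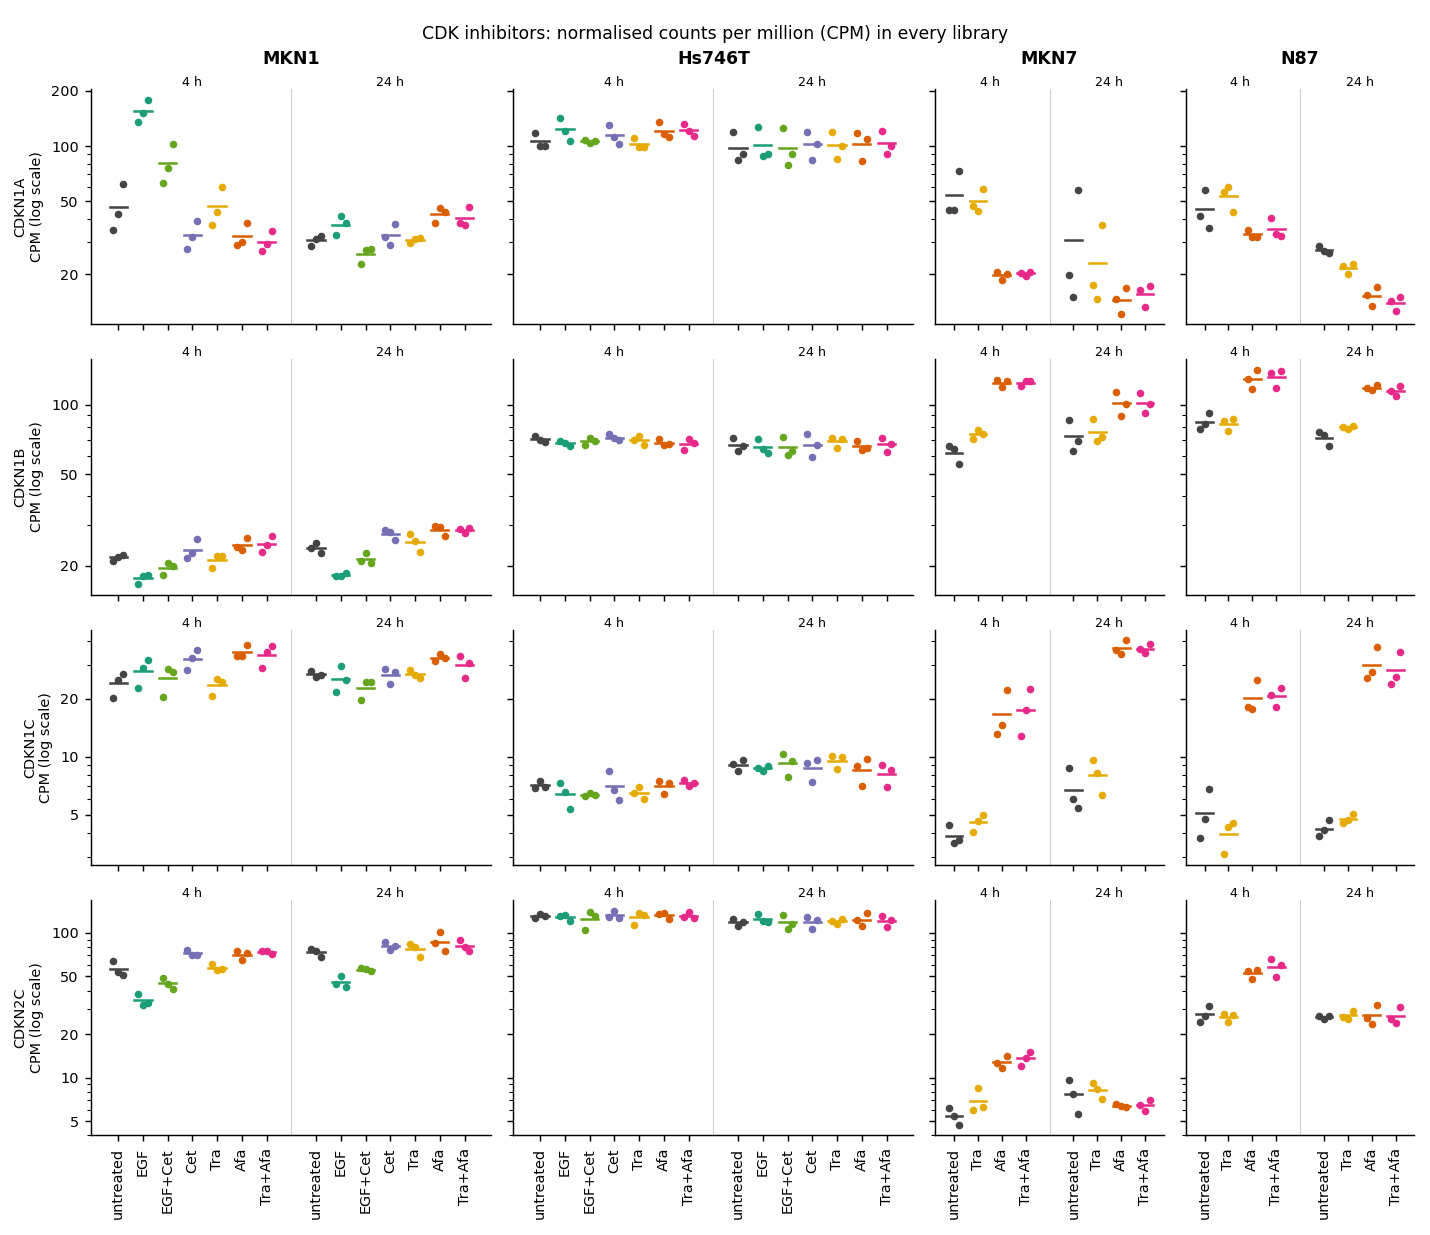
Levels of CDKN1A, CDKN1B, CDKN1C and CDKN2C in all libraries as TMM-scaled CPM on a log axis, by cell line, treatment and time; points are replicates and bars the mean of 3. CDKN1C lies at 25.5 to 36.9 CPM in afatinib-treated N87 cells at 24 h, against 3.85 to 4.68 in untreated cells.

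CDKN1A, encoding p21 and a target of p53, did not follow the other CIP/KIP genes. In MKN7 cells it fell at 4 h from 44.8, 44.7 and 72.7 CPM to 20.6, 18.7 and 20.02 CPM (log2FC -1.49, SE 0.36, adjusted p = 0.00455, and adjusted p = 0.0647 without replicate 1). At 24 h the MKN7 groups overlapped, with 19.7, 15 and 57.2 CPM untreated and 14.6, 12.2 and 16.8 CPM treated (log2FC -1.09, SE 0.36, adjusted p = 0.0158). Without the libraries of replicate 3, of which the untreated one held 57.2 CPM, the log2FC was -0.40, adjusted p = 0.046. Without replicate 1 the adjusted p was 0.0576, and with the replicate block the log2FC was -0.91 (adjusted p = 6.55e-04), short of the fold limit. In N87 cells CDKN1A fell at 24 h from 28.3, 26.7 and 26.2 CPM to 15.4, 13.4 and 16.9 CPM (log2FC -0.86, SE 0.15, adjusted p = 3.23e-05), with all treated values below all untreated ones. The 4 h difference was smaller, from 41.8, 57.8 and 35.6 CPM to 35, 32.1 and 31.7 CPM (log2FC -0.45, SE 0.15, adjusted p = 0.0345), and did not pass without replicate 1 (adjusted p = 0.104), without replicate 2 (log2FC -0.22, adjusted p = 0.46) or with scaling by library size alone (adjusted p = 0.0713). In MKN1 cells the values were lower with afatinib at 4 h and higher at 24 h: 34.8, 42.4 and 62.2 CPM untreated against 28.7, 30.1 and 38.2 CPM at 4 h, and 28.4, 31 and 32.4 CPM against 37.9, 45.9 and 43.7 CPM at 24 h. Neither MKN1 change passed without the block (log2FC -0.54 and 0.46, adjusted p = 0.117 and 0.0751), both passed with it (adjusted p = 3.50e-05 and 3.66e-05), and the effects at the 2 times differed (difference 0.997, adjusted p = 0.0361). That difference did not pass on leaving out replicate 1, 2 or 3 (adjusted p = 0.12, 0.21 and 0.11).

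CDKN2C, the INK4 gene that was counted, rose at 4 h and was back near its control at 24 h. MKN7 cells held 6.19, 5.42 and 4.74 CPM untreated and 12.5, 11.7 and 14.1 CPM with afatinib at 4 h (log2FC 1.19, SE 0.16, adjusted p = 1.27e-05). In N87 cells the 4 h values were 24.1, 26.7 and 31.3 CPM and 54.9, 47.7 and 55.7 CPM (log2FC 0.95, SE 0.12, adjusted p = 7.86e-06). Treated and untreated replicates were separate in both lines. At 24 h MKN7 cells held 9.69, 7.78 and 5.62 CPM untreated and 6.63, 6.39 and 6.25 CPM treated (log2FC -0.27, adjusted p = 0.164), and N87 cells 26.6, 25.4 and 26.5 CPM and 25.8, 23.4 and 31.8 CPM (log2FC 0.01, adjusted p = 0.943). The effect differed between the times in MKN7 (difference -1.46, adjusted p = 1.22e-04) and N87 cells (difference -0.94, adjusted p = 2.30e-04). In MKN1 cells CDKN2C passed with the block alone, at 4 h (log2FC 0.31, blocked adjusted p = 0.00313) and 24 h (log2FC 0.23, blocked adjusted p = 0.0113), as did CCND3 at 4 h (log2FC -0.27, blocked adjusted p = 0.0218).

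In Hs746T cells no member passed the test under any treatment in the fit without the replicate block. Over 12 contrasts with untreated cells and 108 member tests, 0 passed in edgeR, 2 had an unadjusted p below 0.05, 0 passed in DESeq2, and the log2FC of all members but CCND2 lay between -0.55 and 0.32. The share of all genes was 0.0% in each of these contrasts. CCND1 stayed at 995 to 1392 CPM in all 42 libraries and CDKN1B at 59.5 to 74.3 CPM. With the replicate block 4 of 9 members passed for afatinib at 4 h, where the blocked share of all genes was 18.6%, and 2 of 9 for Tra+Afa at 4 h (all genes 1.67%). In the other 10 contrasts no member passed with it, and the blocked share of all genes was 0.0 to 0.712%. With afatinib at 4 h CDK6 went from 161, 150.1 and 139 CPM to 100.2, 82.8 and 115 CPM (log2FC -0.55, adjusted p = 0.678 without and 0.00177 with it). The others were CDK4 (log2FC 0.32, blocked adjusted p = 0.0134), CDKN1A (log2FC 0.23, blocked adjusted p = 0.00748) and CCND2 (log2FC -0.42, blocked adjusted p = 0.0486).

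The difference in afatinib effect between lines was tested directly. Against Hs746T cells, the effects on CCND1, CCND3, CDKN1B, CDKN1C and CDKN2C at 4 h differed in both MKN7 and N87 cells, for example by 1.49 log2 units for CCND1 (Hs746T minus MKN7, adjusted p = 1.30e-06) and -2.001 for CDKN1C (Hs746T minus N87, adjusted p = 1.39e-09). For all genes the shares were 5.3% and 6.74%. The CCND3 differences did not pass on leaving out replicate 1, 2 or 3 (adjusted p = 0.0658, 0.187 and 0.0846 against MKN7 cells, and 0.0563, 0.131 and 0.128 against N87 cells). MKN1 cells had smaller rises than MKN7 or N87 cells at 4 h in CDKN1B, CDKN1C and CDKN2C (all genes 1.38% and 1.83%), with a difference of -1.55 for CDKN1C between MKN1 and MKN7 cells (adjusted p = 5.71e-06). The MKN1 and N87 difference in CDKN1B did not pass on leaving out replicate 1, 2 or 3 (adjusted p = 0.161, 0.236 and 0.295), and that in CDKN2C without replicate 1 or 2 (adjusted p = 0.441 and 0.229). The MKN1 and MKN7 difference in CDKN2C had an adjusted p of 0.0575 without replicate 3. At 24 h 6 members differed between Hs746T and MKN7 (all genes 18.8%), 6 between Hs746T and N87 (all genes 35.1%), 3 between MKN1 and MKN7 (all genes 7.61%) and 5 between MKN1 and N87 cells (all genes 28.0%). Between MKN1 and Hs746T cells no member differed at 4 h in edgeR (all genes 0.372%), with 4 at an unadjusted p below 0.05, 0 in DESeq2 and 2 with the block (all genes 6.14%), and CCND1 differed at 24 h (-1.80, adjusted p = 2.55e-08, all genes 4.41%). Between MKN7 and N87 cells no member differed at 4 h or 24 h in edgeR (all genes 1.01% and 21.4%), with 3 and 3 at an unadjusted p below 0.05, while DESeq2 called 0 and 1. With the replicate block CDK6 (adjusted p = 0.045), CDKN1A (0.00199) and CDKN1B (0.0056) differed at 4 h and CCND3 (0.00946) and CDK4 (0.0138) at 24 h (all genes 5.55% and 34.8%). The block also brought CCND1 at 4 h past the threshold between MKN1 cells and Hs746T (adjusted p = 0.198 without and 0.00433 with it), MKN7 (0.0547 and 5.99e-04) and N87 cells (0.122 and 0.00378), and CDKN1A at 4 h between MKN1 and Hs746T (0.0365), MKN1 and MKN7 (0.00324) and Hs746T and N87 cells (0.0229). At 24 h it added CCND3 between MKN1 and Hs746T (0.00231), and CDK4 (0.0286) and CDKN2C (0.0127) between MKN1 and MKN7 cells. CDK6 was added between MKN1 and N87 at 24 h (0.0116) and between Hs746T and N87 cells at 4 h (0.0432) and 24 h (0.0362). CCND2, with 0 to 9 counts per N87 library, was added at 24 h between N87 and both MKN1 (0.0287) and Hs746T cells (0.0163).

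No member passed the test under trastuzumab alone. Over its 8 contrasts and 68 member tests 0 passed in edgeR, 3 had an unadjusted p below 0.05, 0 passed in DESeq2 and 0 with the block, and the share of all genes was 0.0% in each line at both times. The log2FC of all members but CCND2 lay between -0.41 and 0.32. Adding trastuzumab to afatinib gave 0 changed members against afatinib alone, with 0 of 68 tests below an unadjusted p of 0.05, 0 in DESeq2 and log2FC from -0.23 to 0.21. The share of all genes was 0.0% here too. Against untreated cells, Tra+Afa changed 3 of 9 members at 4 h and 3 at 24 h in MKN1 (all genes 3.95% and 26.8%), 7 and 6 of 8 in MKN7 (all genes 23.4% and 51.9%) and 5 and 7 of 8 in N87 cells (all genes 17.3% and 64.7%). With the replicate block the MKN1 counts were 6 and 5 (all genes 13.8% at 4 h, and 8710 of 19815 genes at 24 h). Against trastuzumab alone they were 3 and 3 (all genes 3.08% and 27.9%), and with the block 5 and 5 (all genes 10.9% and 45.4%). Without the 2 MKN1 24 h libraries that stood apart, the calls of CDK4 against Tra at 24 h (adjusted p = 0.111), CDKN2C against Tra at 4 h (0.0596) and CDKN1A against untreated cells at 4 h (0.053) were lost. In N87 cells at 24 h, CCND1 stood at 82.5, 73.7 and 117 CPM with Tra+Afa, and CDKN1C at 23.9, 25.9 and 35 CPM. In MKN7 cells at 24 h the values were 197, 214 and 212 CPM for CCND1 and 36.2, 34.5 and 38.3 CPM for CDKN1C. Each of these groups lay apart from its untreated replicates.

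In MKN1 cells EGF raised CDKN1A at 4 h and CCND1 and CCND3 at 24 h, and lowered CDKN2C and CDKN1B at both times. At 4 h 3 of 9 members changed (all genes 6.82%) and at 24 h 4 of 9 (all genes 35.8%). CDKN1A went from 34.8, 42.4 and 62.2 CPM to 135, 152 and 179 CPM at 4 h (log2FC 1.75, SE 0.19, adjusted p = 5.99e-08) without overlap. At 24 h the p21 level in EGF-treated cells was 37.3 ± 4.43 CPM (SD, n = 3) against 30.6 ± 2.04 CPM, and the effect had become smaller (difference -1.45, adjusted p = 6.57e-04). CCND1 did not pass at 4 h (log2FC 0.33, adjusted p = 0.456). At 24 h it rose from 366, 332 and 515 CPM to 889.7, 677 and 784 CPM (log2FC 0.97, SE 0.21, adjusted p = 3.52e-04). The EGF effects on CCND1 at the 2 times did not differ by the test (difference 0.64, adjusted p = 0.168), but did with the replicate block (adjusted p = 0.0311). The untreated level had itself fallen between 4 h and 24 h, from 1114, 863 and 951 CPM (log2FC -1.29, SE 0.21, adjusted p = 8.71e-06; all genes 34.1%). CCND3 rose at 24 h from 95.6, 100.03 and 109 CPM to 145, 176 and 139 CPM (log2FC 0.61, SE 0.09, adjusted p = 1.66e-06).

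CDKN2C fell with EGF at 4 h from 64.4, 54.1 and 50.9 CPM to 37.6, 31.8 and 33 CPM (log2FC -0.71, SE 0.10, adjusted p = 4.25e-06) and at 24 h from 77.4, 74.9 and 68.3 CPM to 44.4, 50.4 and 42.5 CPM (log2FC -0.66, SE 0.10, adjusted p = 3.13e-06). CDKN1B fell from 24, 25.1 and 22.7 CPM to 18.1, 18 and 18.6 CPM at 24 h (log2FC -0.37, SE 0.08, adjusted p = 5.61e-04). Its 4 h change (log2FC -0.29, adjusted p = 0.0251) did not pass on leaving out replicate 1, 2 or 3 (adjusted p = 0.228, 0.179 and 0.0786). With the replicate block CDK6 also passed at 4 h (log2FC 0.37, adjusted p = 0.0289), and CDK4 (log2FC 0.29, adjusted p = 0.00552) and CDKN1A (log2FC 0.31, adjusted p = 0.00284) at 24 h.

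Cetuximab was compared with and without EGF in MKN1 cells. Added to EGF, it lowered CDKN1A at 4 h from 135, 152 and 179 CPM to 63.2, 76.1 and 103 CPM (log2FC -0.95, SE 0.19, adjusted p = 0.00567; 1 of 9 members, all genes 0.701%). Without replicate 1 or 2 the adjusted p was 0.135 and 0.312. CDKN2C missed the threshold there (log2FC 0.39, adjusted p = 0.051, and 6.59e-04 with the block). At 24 h no member differed between EGF+Cet and EGF in edgeR (0 of 9, all genes 0.646%), with 4 at an unadjusted p below 0.05, 0 in DESeq2 and 3 with the block (all genes 7.22%). Cetuximab alone changed 0 of 9 members at 4 h in edgeR (all genes 1.43%), with 5 at an unadjusted p below 0.05, 1 in DESeq2 and 4 with the block, where the share of all genes was 7.5%: CCND1 (log2FC -0.66, blocked adjusted p = 0.00517), CDKN1A (-0.51, 1.27e-04), CDKN1C (0.42, 0.00596) and CDKN2C (0.35, 0.00137). At 24 h CCND1 fell from 366, 332 and 515 CPM to 223, 208 and 184 CPM (log2FC -0.997, SE 0.21, adjusted p = 0.00187, with 2 of 9 members and 10.8% of all genes changed). This did not pass without replicate 3 (log2FC -0.73, adjusted p = 0.138). With the replicate block the CCND1 log2FC was -1.002 (adjusted p = 1.31e-05), just past the fold limit. CCND3, at 89.96, 77 and 83 CPM, fell by a log2FC of -0.31 (adjusted p = 0.0212), and without the 2 MKN1 24 h libraries that stood apart the value was -0.25, adjusted p = 0.12. Without replicate 1, 2 or 3 its adjusted p was 0.0549, 0.0652 and 0.269. With the block CDK4 (log2FC -0.30, adjusted p = 0.01), CDK6 (0.31, 0.0234) and CDKN1B (0.18, 0.0136) passed as well at 24 h (5 of 9 members, all genes 30.4%), in a condition that holds 1 of the libraries that stood apart.

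EGF+Cet against untreated MKN1 cells gave 1 changed member at 4 h (all genes 0.717%) and 3 at 24 h (all genes 18.6%). At 4 h CDKN1A was higher (log2FC 0.81, SE 0.19, adjusted p = 0.0294), a call lost without replicate 1 or 2 (adjusted p = 0.284 and 0.47). At 24 h CCND1 (log2FC 0.73, SE 0.20, adjusted p = 0.0108) and CCND3 (log2FC 0.41, adjusted p = 0.00121) were higher and CDKN2C (log2FC -0.40, adjusted p = 0.00416) was lower. All 3 calls were lost without replicate 1 (adjusted p = 0.196, 0.158 and 0.136), and that of CCND1 also without replicate 2 (adjusted p = 0.0856). With the replicate block CDKN2C also passed at 4 h (log2FC -0.32, adjusted p = 0.00616), and CDKN1A (log2FC -0.24, adjusted p = 0.0215) and CDKN1B (log2FC -0.16, adjusted p = 0.0296) at 24 h. The comparisons of EGF, Cet and EGF+Cet with untreated cells share their controls.

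Members also moved with time in untreated cells. In MKN7 cells CCND1 was lower at 24 h than at 4 h (log2FC -0.61, SE 0.13, adjusted p = 0.003), as was CDK6 (log2FC -0.79, adjusted p = 0.0185), and CDKN1C was higher (log2FC 0.76, adjusted p = 0.0214; all genes 16.4%). Each of these calls was lost on leaving out a replicate: CCND1 without replicate 1 or 2 (adjusted p = 0.0608 and 0.0751), CDK6 without replicate 3 (adjusted p = 0.184) and CDKN1C without replicate 1 or 2 (adjusted p = 0.112 and 0.18). In MKN1 cells CCND3 (log2FC -0.46) and CDKN1A (log2FC -0.63) were lower at 24 h and CDKN2C was higher (log2FC 0.36), the CDKN1A call being lost without replicate 2 or 3 (adjusted p = 0.0818 and 0.0595). Of the members tested in N87 cells 1 passed, CDKN1A (log2FC -0.72, SE 0.15, adjusted p = 0.031; all genes 0.267%), which did not pass without replicate 1 or 2 (adjusted p = 0.208 and 0.909), and with the block CCND3 was lower too (log2FC -0.27, adjusted p = 0.0396, all genes 4.32%). Of the 9 members tested in Hs746T cells 0 passed in edgeR (all genes 1.48%), with 1 at an unadjusted p below 0.05 and 0 in DESeq2, and the block added CDKN1C (log2FC 0.38, adjusted p = 0.024, all genes 10.2%). The block also brought CDK6 in MKN1 (0.00114) and CDKN1A (0.00365) and CDKN2C (0.0268) in MKN7 cells below an adjusted p of 0.05. The effects over time above are each measured against untreated cells of the same time. The afatinib effect differed between 24 h and 4 h for 2 members in MKN1 (all genes 2.77%), 3 in MKN7 (all genes 18.0%), 5 in N87 (all genes 35.8%) and 0 in Hs746T cells in edgeR (all genes 0.0%), with 0 there at an unadjusted p below 0.05 and 0 in DESeq2. The EGF effect differed between the times in MKN1 cells for 2 (all genes 9.46%). With the block the MKN7 count was 5, with CCND1 (difference -0.42, adjusted p = 0.00417) and CDK4 (-0.50, 2.13e-04) added (all genes 36.7%). The N87 count was 7, with CCND1 (-0.48, 0.0012) and CDKN1A (-0.41, 0.0188) added (all genes 50.9%).

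The other genes of the G1/S pathway, 27 in all and 26 tested, include the E-type cyclins, the retinoblastoma family, E2F factors and the ligases that degrade cyclins and p27. With afatinib 10 changed in MKN7 cells at 4 h (3 higher, 7 lower) and 20 at 24 h (2 higher, 18 lower), against 22.2% and 51.6% of all genes. In N87 cells 11 changed at 4 h (4 higher, 7 lower) and 23 at 24 h (3 higher, 20 lower), against 18.2% and 62.5% of all genes, with a median log2FC at 24 h of -0.907 over the list and 0.0323 over all genes. MKN1 cells had 2 at 4 h and 16 at 24 h (all genes 3.68% and 25.6%), the latter 9, 18 and 4 (without replicates 1, 2 and 3) with a replicate left out. Hs746T cells had 0 at both times in edgeR, with 1 and 0 genes of the list at an unadjusted p below 0.05 at 4 h and 24 h and 0 and 0 in DESeq2. With the replicate block the 4 h counts were 11 in MKN1 (all genes 13.2%), 16 in MKN7 (all genes 38.4%) and 7 in Hs746T cells (all genes 18.6%). CCNE1, the partner of CDK2 in late G1, fell at 24 h by a log2FC of -1.23 in MKN7 (adjusted p = 8.28e-05) and -2.50 in N87 cells (adjusted p = 5.97e-14). CDC25A, a phosphatase that activates CDK2, fell by -1.36 in MKN7 and -3.24 in N87 cells at that time.

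Of the readouts of pathways upstream of the members, those regulated in at least 2 lines under the same treatment and time are named. That they moved follows from this rule. DUSP6, a target of ERK signalling, stood at 11.3 ± 3.19 CPM untreated and 0.717 ± 0.0679 CPM after 4 h of afatinib in MKN7 cells (SD, n = 3), at 35.9 ± 15.3 and 1.31 ± 0.262 CPM in N87 cells, at 31.1 ± 9.26 and 3.05 ± 0.284 CPM in MKN1 cells, and at 40.7 ± 3.67 and 49.3 ± 4.35 CPM in Hs746T cells. The adjusted p in edgeR were 4.20e-06, 5.53e-09, 1.61e-06 and 0.678 in this order. EGR1 and SPRY4, listed with DUSP6, fell at 4 h by a log2FC of -3.59 and -3.76 in MKN1, -2.40 and -5.21 in MKN7 and -4.60 and -3.94 in N87 cells (each adjusted p at or below 3.58e-05 in edgeR). In Hs746T cells their log2FC were 0.04 and -0.10 (adjusted p = 0.998 and 0.963). MYC, a transcription factor that promotes growth, went from 409 ± 31.8 to 94.3 ± 6.28 CPM in N87 cells at 4 h (adjusted p = 7.64e-10), and fell by a log2FC of -1.86 in MKN7 (adjusted p = 4.09e-10) and -1.81 in MKN1 cells (adjusted p = 2.94e-06). CCNG2, a FOXO target, rose at 4 h by a log2FC of 1.81 in MKN7 and 1.91 in N87 cells (adjusted p = 2.58e-09 and 2.32e-07), with 0.48 in MKN1 cells (adjusted p = 0.0689). PIK3IP1, an inhibitor of PI3K, rose at 24 h by 1.53 and 4.37. The 11 genes of S phase and mitosis, such as MKI67, all fell at 24 h in MKN7 and N87 cells, where 51.6% and 62.5% of all genes changed in either direction. In MKN1 cells 9 of them fell, where 25.6% of all genes changed in either direction. MKI67 there went from 555, 409 and 589 CPM to 442, 383 and 305 CPM, groups that overlapped. MKI67 went from 846 ± 93.2 to 285 ± 9.47 CPM in N87 cells. The p53 readouts BTG2, GDF15 and MDM2 and the FOXO readouts IRS2, KLF6 and SESN1 did not meet the naming rule. MDM2 did not pass with afatinib at 4 h in MKN1, MKN7 or N87 cells (adjusted p = 0.983, 0.224 and 0.569 in edgeR). In N87 cells at 24 h BTG2 rose (log2FC 2.01), while GDF15 (log2FC -1.29) and MDM2 (log2FC -0.65) fell. Whether the members' changes depend on any of these readouts was not tested.

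Over the 44 conditions, each centred on the mean of its line, the genes with patterns most like each member were listed among 11827 genes. These correlations are descriptions, since conditions share lines, times and controls. CCND1 was most like SURF6 (r = 0.973), SPRED1 (r = 0.970) and RCL1 (r = 0.969), and CCND3 most like ARHGDIA and PLOD3 (r = 0.990 each). CDK4 followed TMEM147 (r = 0.993), SLC25A39 and TPI1. CDKN1B was most like SEPSECS (r = 0.960), CCNG2 (r = 0.931) and EAPP, CDKN1C most like TSC1 (r = 0.945), N4BP1 and STARD13, and CDKN2C most like MXD3 (r = 0.956), AP5S1 and CDC25C. The closest patterns were looser for CDK6, with HIPK2 (r = 0.883), CACUL1 and CELF1, and for CDKN1A, with CD274 (r = 0.885), LAMB3 and CTNNA1. Among the members themselves CCND3 and CDK4 were most alike (r = 0.95), followed by CCND1 and CCND3 (r = 0.82), while CCND1 and CDKN1B ran opposite (r = -0.82). Such values were common among the 11827 genes. CDK4 ranked 373 in likeness to CCND3, and CCND3 ranked 246 for CDK4. CCND3 ranked 1340 for CCND1, and CCND1 ranked 2436 for CCND3. At the opposite end, CDKN1B ranked 10990 for CCND1, and CCND1 ranked 11717 for CDKN1B.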

How the data were processed

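RNA was sequenced in 42 libraries each of MKN1 and Hs746T and 24 each of MKN7 and N87 cells. Per the labels' processing notes, the authors trimmed reads with Trim Galore and aligned them with STAR to hg38; versions, counting tool and strand setting are not given in the sources used here. Libraries were made from poly(A)-selected RNA with a directional kit and sequenced with paired ends. The deposited values are raw counts per Ensembl identifier, 1 file per library, not normalized. Of 65217 identifiers, 8404 were not in GENCODE 29 and held 0.0422% of counts. Depth was 25832557 to 69434151 counts, and intervals or limits from counts cover counting error only.

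The 10 members and the lists of G1/S genes and readouts were chosen with earlier results of these data known. All members are named; of the lists, genes regulated in at least 2 lines under the same treatment and time, and DUSP6. For each member counted above a mean log2 CPM of 1 in 2 or more lines, the 3 most similar genes were taken, over condition means of log2 CPM centred on the line.

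Counts were tested with edgeR 4.0.16 in R 4.3.3 (glmQLFit, glmQLFTest, TMM, filterByExpr with a minimum count of 10 and total of 15, prior count 2), in 1 fit per line without covariates, or over all libraries for line differences. P-values were adjusted by Benjamini-Hochberg over all genes of a fit. Genomic coordinates, exon lengths and overlaps came from GENCODE 29 (GRCh38), promoters from RefSeq (GRCh38.p14; 7 members matched). Alternatives were DESeq2 1.42.0, a block for the replicate number, other filters (none, or a minimum of 10 counts throughout), unscaled library sizes, fits of the compared groups, and fits with 1 replicate number left out. The block was set within line and time for treatments and their change over time. For line differences and for untreated cells over time it was set within line, across both times. Whether the same number marks the same culture at 4 h and 24 h was not checked. The test scripts were checked on simulated counts.

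Replicate numbers come from the labels. In 54 of 56 contrasts every same-numbered pair deviated together (r above 0.1, from -0.01 to 0.739 over all). The exceptions were MKN1 Tra+Afa against Afa and against Tra at 24 h, both through replicate 2 (r = 0.088 and -0.01).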

Additional observations from a re-analysis of the deposited data

Results flagged for a closer look

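The afatinib effect on a member is called different between 2 times or 2 cell lines when a test of the difference itself passed at an adjusted p below 0.05 in edgeR. Differences below are in log2FC.

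Between 24 h and 4 h of afatinib (24 h minus 4 h), the effect on CDKN1A differed by 1.0 and that on CCND1 by -1.07 in MKN1 cells. In MKN7 cells the differences were -1.46 for CDKN2C, -0.64 for CCND3 and -0.5 for CDKN1B. In N87 cells they were -0.94 for CDKN2C, -1.09 for CCND3, -0.74 for CDK6, 0.8 for CDKN1C and -0.98 for CDK4. For EGF in MKN1 cells, the effect on CDKN1A differed by -1.45 and that on CCND3 by 0.52.

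At 4 h of afatinib, MKN1 minus MKN7 cells gave -0.83 for CDKN1B, -1.55 for CDKN1C and -0.91 for CDKN2C. MKN1 minus N87 cells gave -0.43 for CDKN1B, -1.45 for CDKN1C and -0.63 for CDKN2C. The Hs746T minus MKN7 differences were 1.49 for CCND1, 0.59 for CCND3, 1.64 for CDKN1A, -1.06 for CDKN1B, -2.11 for CDKN1C and -1.22 for CDKN2C. Hs746T and N87 cells differed, in that order, by 1.39 for CCND1, 0.59 for CCND3, -0.66 for CDKN1B, -2.0 for CDKN1C and -0.93 for CDKN2C.

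At 24 h, CCND1 differed by -1.8 between MKN1 and Hs746T cells. For MKN1 minus MKN7 cells the values were 0.73 for CCND3, 1.55 for CDKN1A and -2.16 for CDKN1C. For MKN1 minus N87 cells they were 1.11 for CCND3, 0.95 for CDK4, 1.3 for CDKN1A, -0.46 for CDKN1B and -2.54 for CDKN1C. Hs746T minus MKN7 cells gave 1.97 for CCND1, 1.22 for CCND3, 0.7 for CDK4, 1.15 for CDKN1A, -0.49 for CDKN1B and -2.53 for CDKN1C. Without replicate 3 the CDKN1A value of Hs746T minus MKN7 cells was 0.36 (adjusted p = 0.586). That of MKN1 minus MKN7 cells was then 0.84 (adjusted p = 0.113). Hs746T minus N87 cells gave 1.86 for CCND1, 1.61 for CCND3, 1.17 for CDK4, 0.91 for CDKN1A, -0.74 for CDKN1B and -2.91 for CDKN1C.

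Several of these calls were lost under an alternative. Over time, the CDK6 difference in N87 cells was -0.43, adjusted p = 0.205 without replicate 3, and its adjusted p was 0.0558 without replicate 2 and 0.0661 with library size alone. CCND3 over time lost its call in MKN7 cells without replicate 1 or 3 (adjusted p = 0.215 and 0.123) and, for EGF in MKN1 cells, without replicate 1 or 2 (0.177 and 0.0558). Between Hs746T and N87 cells at 24 h, CDKN1A was lost with library size alone (0.0912), with at least 10 counts in every library (0.0627), without replicate 1 or 2 (0.0754 and 0.109) and in DESeq2 (0.0512). Between Hs746T and MKN7 cells at 24 h, CDK4 and CDKN1B were lost without replicate 3 (0.322 and 0.0975). Fits of the compared groups alone lost CCND3 (0.0633) and CDKN1A (0.0811) between MKN1 and MKN7 and CDKN1A between Hs746T and MKN7 cells at 24 h (0.168), and CDKN1B and CDKN2C between MKN1 and N87 cells at 4 h (0.12 and 0.0665), which were lost without a filter too (0.156 and 0.0699).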

How the results depend on the processing

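Of 208 member results that passed in edgeR, 1692 of 1859 alternatives kept the direction and the side of the threshold and 167 lost the call. The replicate block lost 0 calls and added 72. Leaving out replicate 1, 2 or 3 lost 39, 34 and 42, a fit on the compared groups alone 26, and DESeq2 1. A called direction reversed in none. Uncalled values turned for CDKN2C in N87 Tra+Afa cells at 24 h, where scaling by library size alone gave a log2FC of 0.30 against untreated and 0.25 against Tra cells, and for CDKN1A between untreated MKN7 and N87 cells, from -0.40 to 0.56 with a replicate left out. Library size alone moved the median of all genes by 0.26 in N87 Afa, 0.31 in N87 Tra+Afa and -0.20 in MKN1 EGF cells at 24 h. The causes were not tested.

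With the replicate block, the members changed in MKN1 cells at 4 h became 2 (EGF+Cet), 4 (Cet), 5 (Afa), 6 (Tra+Afa), 2 (EGF+Cet against EGF) and 5 (Tra+Afa against Tra), and at 24 h 5 (EGF+Cet), 5 (Cet), 6 (Afa), 5 (Tra+Afa), 3 (EGF+Cet against EGF) and 5 (Tra+Afa against Tra). The blocked counts were 4 and 2 in Hs746T cells at 4 h (Afa, Tra+Afa), 1, 5 and 2 for untreated Hs746T, MKN7 and N87 cells over time, and 5 for the MKN7 afatinib effect over time. For differences in afatinib effect they were 2 at 4 h and 2 at 24 h (MKN1 and Hs746T), 5 and 5 (MKN1 and MKN7), and 3 and 2 (MKN7 and N87). Blocked counts of G1/S genes under afatinib at 4 h were 11 in MKN1, 7 in Hs746T and 16 in MKN7 cells. The block was not run between untreated lines, since the numbers do not pair them. It also raised the share of all genes called, for example from 3.68% to 13.2% with afatinib in MKN1 cells at 4 h. The counts here and below stand without that share. They show how calls depend on the processing and are not results about the members.

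With a replicate left out, counts of changed members in MKN1 cells ranged from 0 to 1 (EGF+Cet, Afa, and EGF+Cet against EGF) and from 0 to 2 (Tra+Afa, against untreated or Tra) at 4 h, and from 0 to 3 (EGF+Cet), 0 to 1 (Cet) and 1 to 3 (Afa) at 24 h. Over time they ranged from 0 to 0 (MKN1 afatinib effect), 1 to 2 (MKN1 EGF effect), 3 to 5 (N87 afatinib effect), 1 to 4 (untreated MKN7) and 0 to 1 (untreated N87). For differences between lines the ranges were 1 to 2 (MKN1 and Hs746T, 24 h), 1 to 2 (MKN1 and N87, 4 h) and 3 to 6 (Hs746T and MKN7, 24 h). G1/S counts under afatinib ranged from 0 to 3 (MKN1, 4 h), 4 to 18 (MKN1, 24 h) and 7 to 10 (N87, 4 h).

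Fitting the compared groups alone gave 0 (EGF+Cet), 1 (Afa), 1 (Tra+Afa), 0 (EGF+Cet against EGF) and 1 (Tra+Afa against Tra) in MKN1 cells at 4 h, 1 for Cet at 24 h, and 0, 1 and 0 over time (MKN1 afatinib effect, untreated MKN7, untreated N87). It gave 1 for MKN1 and MKN7 cells at 24 h and 1 for MKN1 and N87 cells at 4 h. G1/S counts were 0 and 6 in MKN1 Afa cells at 4 h and 24 h. Library size alone gave 1 (Cet, 4 h), 2 (EGF+Cet against EGF, 4 h), 5 (Afa, 24 h) and 1 (EGF+Cet against EGF, 24 h) in MKN1 cells, 2 for MKN1 and Hs746T and 2 for MKN7 and N87 cells at 24 h, and 0 G1/S genes in MKN1 Afa cells at 4 h. Requiring at least 10 counts in every library gave 1 (Cet) and 2 (EGF+Cet against EGF) in MKN1 cells at 4 h, and 2 and 2 for MKN1 and Hs746T and for MKN7 and N87 cells at 24 h. No filter gave 1 for MKN1 Cet cells at 24 h, 5 for the MKN7 afatinib effect over time, 1 for MKN1 and N87 cells at 4 h and 0 G1/S genes in MKN1 Afa cells at 4 h. DESeq2 gave 1 (Cet), 5 (Tra+Afa) and 2 (EGF+Cet against EGF) in MKN1 cells at 4 h and 1 for MKN7 and N87 cells at 24 h. Without the 2 MKN1 24 h libraries that stood apart, an alternative chosen after seeing the data, 1 member changed with Cet at 24 h and 4 calls were lost in all.

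Limits are set by 3 replicates, by the comparison of afatinib with untreated rather than solvent-treated libraries, and by exon bases that CDK4 and CCND1 share with antisense genes. CDKN2B had 0 counts in every library, so a change in it was not detectable at this depth. In MKN7 and N87 cells CCND2 lay at or near the limit of 3 counts and was not tested in the fits of these lines. With the replicate block its afatinib effect at 24 h differed for Hs746T minus N87 (-2.54, adjusted p = 0.0163) and MKN1 minus N87 cells (-2.54, adjusted p = 0.0287). These differences rest on 0 to 9 counts per N87 library.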
